A study of Homo sapiens with 32 samples.

Results

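The comparison set total RNA of an IGF2BP2 knockout clone against a control in HEK293T cells, a line long established from human embryonic kidney. Its members were the 2 total RNA libraries labelled IGF2BP2 knockout and the 4 labelled as the CRISPR control, 6 of the 32 libraries of the series. The knockout cells had been transfected with non-integrating plasmids that carried 3 guide RNAs against IGF2BP2 together with GFP, then sorted as single cells and screened for the protein, and the labels state that 1 clone per gene was sequenced. The control cells had been made in parallel with a guide that targets no mammalian gene, and the labels do not say whether they are a clone or a pool. The labels name no other treatment of either group. Knockout libraries 1 and 2 belong to batches 3 and 4, and control libraries 1 to 4 to batches 1 to 4, so that each knockout library has 1 control of its own batch. Both knockout libraries repeat 1 clone, so the effect of losing IGF2BP2 and the other differences of that clone from the control cannot be told apart, and p-values measure the spread between libraries, which may be technical. Total RNA libraries of an IGF2BP3 knockout clone from the same batches were used for comparison, as were nuclear and cytoplasmic RNA of the same genotypes.

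IGF2BP2 belongs to a family of RNA-binding proteins with paired RNA-recognition motifs and KH domains, which bind many mRNAs, among them mRNAs that carry N6-methyladenosine, and affect their stability, location and translation. The family is high in embryonic tissue and returns in many tumours, hence the word oncofetal. IGF2 mRNA gave the proteins their name, and IGF2BP2 is also known for binding mRNAs of mitochondrial respiratory chain proteins.

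The 6 libraries held 16179939 to 23449208 counts each, and 3 counts, the most that a count of 0 allows, came to 0.128 to 0.185 CPM (counts scaled to a common library total). Replicates differed by more than counting noise but not by much: the mean chi-square per gene was 2.18 between the knockout libraries, 1.71 between controls 1 and 2 and 3.09 between controls 3 and 4, against 13.3 between controls 1 and 3 and 13.9 between controls 2 and 4, so the controls of batches 1 and 2 stood apart from those of batches 3 and 4. Fold changes below come from a fit with a batch term and rest on the pairs of batches 3 and 4, while levels are given for every library. Of 14 markers of embryonic kidney and of the HEK293 line, 11 passed the filter on low counts, and the summed level of the list was 1060 to 1124 CPM in the controls and 1040 to 1076 CPM in the knockout. PAX8 and CDH6, markers of kidney epithelium, were under 1 CPM in all 6 libraries. Markers of other cell types were low: the blood list summed to at most 3.75 CPM, the endothelial list to at most 0.618 CPM and the hepatocyte list to at most 1.42 CPM in any of these libraries, with HBB at 0 throughout. The fibroblast and muscle list reached 34.8 to 41.5 CPM in the controls and 45.4 to 46.0 CPM in the knockout, carried by COL1A1, with COL1A2 and DCN at 0 in the controls.

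IGF2BP2 itself, on chromosome 3 (GRCh38 chr3:185643739-185825056, minus strand, protein coding), was at 104, 99.1, 77.5 and 73.6 CPM in control libraries 1 to 4 and at 34.3 and 34.8 CPM in the knockout libraries. Every control lay above both knockout libraries. In the fit the mRNA fell by 1.32 (log2, SE 0.07), which is 2.49-fold, with an adjusted p of 1.5e-15 (edgeR quasi-likelihood test, Benjamini-Hochberg adjustment). Transcripts of the edited gene were thus still counted. The clone had been screened at the protein level, which these counts do not measure. Its level averaged 78.8 CPM in the IGF2BP3 knockout, and the difference between the knockouts was -1.16 (adjusted p = 2.8e-14, edgeR). Both family members fell as well. IGF2BP1 averaged 442 ± 34.5 CPM (SD, n = 4) in the controls and 353 ± 22.8 CPM (SD, n = 2) in the knockout, a log2 change of -0.42 (SE 0.06), and IGF2BP3 from 83.6 ± 3.56 to 70.4 ± 0.837 CPM, a log2 change of -0.48 (SE 0.06). The 4 controls and the 2 knockout libraries did not overlap for either gene. Per kilobase of annotated exons, the controls held 48.5 CPM of IGF2BP1, 18.7 CPM of IGF2BP2 and 9.82 CPM of IGF2BP3, so the edited gene was the second most abundant of the family on that scale.

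Of 18613 genes tested in total RNA, 11062 were called at an adjusted p under 0.05, which is 59.4%: 5427 were higher in the knockout (29.2%) and 5635 lower (30.3%). Read against this background, a call alone says little, and counts of called genes in a group are to be compared with those shares. A change of 2-fold or more was called for 2733 genes (14.7%), of which 2038 were higher (10.9%) and 695 lower (3.73%). With upper quartile scaling, which moved the median of the tested genes up by 0.10 on the log2 scale, 59.2% of the calls were higher in place of 49.1%. Medians below 0 that lie within this shift, such as those of protein-coding genes and of genes of 10 to 100 CPM given next, depend in sign on the scaling. Knockout and control libraries did not overlap in CPM for 11944 genes, 64.2% of those tested. Levels and overlap use counts over the raw library total and all 4 controls. Fold changes use a further scaling between libraries (TMM) and rest on batches 3 and 4, so both can differ for a gene. FXR1 was called lower, with a log2 change of -0.22, although it averaged 155 CPM in the controls and 157 CPM in the knockout.

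The median change differed between classes of abundance and gene type. The filter on low counts lets a gene in through the libraries of 1 group, knockout included, so the medians of scarce classes describe the genes that passed and are in part set by that choice. Among 3484 genes averaging under 1 CPM the median log2 change was 0.52, among 4739 genes of 1 to 10 CPM it was 0.24, among 7948 genes of 10 to 100 CPM it was -0.08, among 2378 genes of 100 to 1000 CPM it was -0.23, and among 64 genes above that it was -0.39, with 51 lower and 3 higher. Long intergenic RNAs had a median of 0.51 (386 of 990 higher, 80 lower) and antisense RNAs one of 0.43 (450 of 1218 higher, 92 lower), with median control levels of 0.808 and 0.944 CPM, in the class that the filter touches most. Protein-coding genes had a median of -0.04 and processed pseudogenes, whose reads can be shared with their parent genes, one of -0.33. In the IGF2BP3 knockout, which is set against the same controls, the medians of the same level classes were 0.71, 0.26, -0.10, -0.28 and -0.43. Identifiers with at least 1 count numbered 27120 and 28532 in the knockout libraries and 25185 to 26056 in the controls.

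The largest rises were in genes that the control cells hardly used. KLHDC7B was at 0, 0.104, 0.0468 and 0.0573 CPM in the controls and at 6.43 and 8.66 CPM in the knockout. KRTAP19-1, a hair keratin-associated protein on chromosome 21, was at 1.88, 1.67, 1.26 and 0.802 CPM in the controls and at 114 and 107 CPM in the knockout, a log2 change of 6.53 (SE 0.13, adjusted p = 6.9e-26, edgeR). Of 94 genes of the keratin-associated list only 4 passed the filter on low counts, which can be passed through the knockout libraries alone, so they do not speak for the family. They share sequence, so their reads can be split. INHBE, which encodes the inhibin beta E chain, a secreted hepatokine of the activin family, was at 0.256, 0.364, 0.983 and 1.15 CPM in the controls and at 71.0 and 70.9 CPM in the knockout, a 59.0-fold rise in the fit (log2 5.88, SE 0.14, adjusted p = 2.9e-24). FGF21, a stress-induced endocrine growth factor, was at 0.0521 to 0.187 CPM in the controls and at 5.50 and 5.59 CPM in the knockout (log2 5.17, SE 0.41). Lying above every control in both knockout libraries was a condition for naming these genes.

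SHC2, an adaptor of receptor tyrosine kinases, rose from 5.42, 4.43, 2.43 and 3.03 CPM to 79.7 and 80.9 CPM (log2 4.71, SE 0.11). Both collagen genes named by the rule belong to the pericellular matrix: COL6A3 rose from 0.696 ± 0.334 to 14.9 ± 1.27 CPM (SD over 4 and 2 libraries) and COL12A1 from 0.467 ± 0.146 to 12.7 ± 1.95 CPM. TNFRSF9, the costimulatory receptor 4-1BB, rose from 0.193 ± 0.113 to 6.05 ± 1.14 CPM. For these 4 genes the fitted rise was 25.5-fold to 31.2-fold.

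The largest falls reached the limit of detection for several genes. CTSF, the lysosomal protease cathepsin F (chr11:66563463-66568841), was at 27.1, 24.9, 19.8 and 23.3 CPM in the controls and at 0.0618 and 0.0853 CPM in the knockout, 1943 counts against 3, a ratio of 315 with a 95% counting interval of 108 to 1529. SNX19, a sorting nexin at the far end of the same chromosome (chr11:130875436-130916509), was at 5.55 to 7.79 CPM in the controls, with 538 counts, and had 1 count in the knockout libraries together, a ratio of 262 with an interval of 46.8 to 10357. In the IGF2BP3 knockout CTSF averaged 44.1 CPM and SNX19 9.05 CPM. Both transcripts were thus nearly missing from the IGF2BP2 clone while the control and the other clone held them.

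LRATD2, CA2 and NAPRT lie on chromosome 8. LRATD2 fell from 507, 515, 383 and 379.99 CPM to 32.0 and 30.4 CPM (log2 -3.79, SE 0.07, adjusted p = 4.3e-27, edgeR). CA2, the cytosolic carbonic anhydrase II that interconverts carbon dioxide and bicarbonate, fell from 528, 525, 576 and 591 CPM to 81.8 and 79.7 CPM (log2 -3.04, SE 0.06). NAPRT, the nicotinic acid branch enzyme of NAD synthesis, fell from 34.5 ± 2.36 to 4.87 ± 0.193 CPM. IKBKE, an IKK-related kinase of antiviral signalling, fell from 8.07 to 9.79 CPM to 1.42 and 1.58 CPM. DDR2, a collagen receptor kinase, was at 42.7, 43.4, 87.4 and 88.4 CPM in the controls and at 13.0 and 15.2 CPM in the knockout, and the controls of batches 3 and 4 lay above those of batches 1 and 2.

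**Figure D1:**
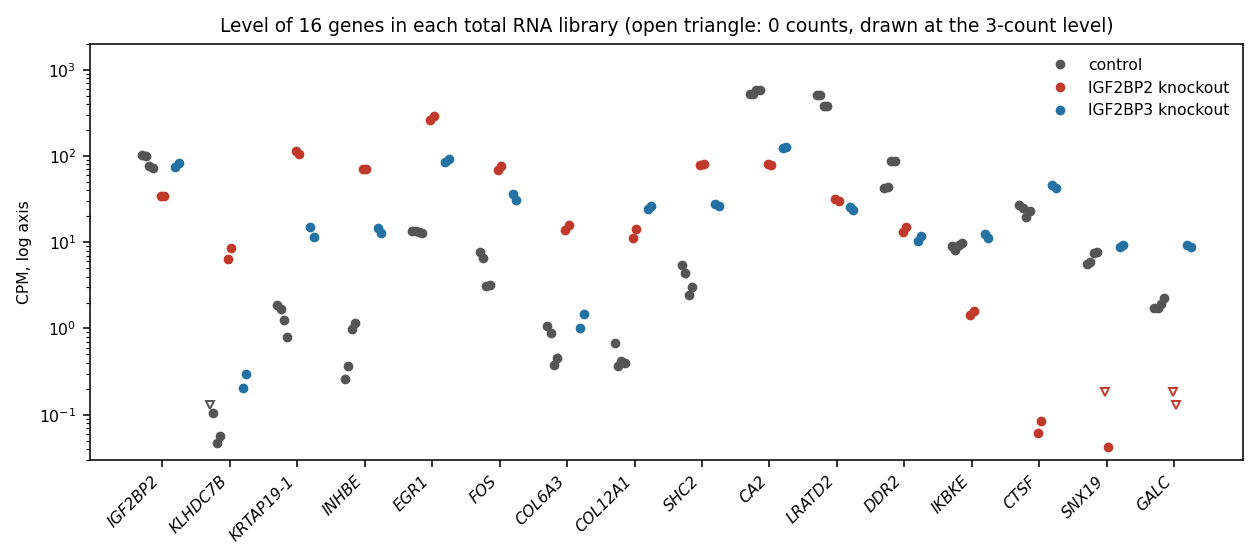
Level in CPM of 16 genes (log axis) in each total RNA library: 4 control (grey), 2 IGF2BP2 knockout (red) and 2 IGF2BP3 knockout libraries (blue), with an open triangle for a library at 0 counts, drawn at the level of 3 counts. IGF2BP2 knockout libraries of the same gene lie close together, and CTSF, SNX19 and GALC are near or at 0 in them. They lie outside the range of the controls for all 16 genes, which was a condition for naming most of these genes.

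GALC, PTN and LINC01687 were the only genes at 0 in 1 group and at 1 CPM or more throughout the other. GALC, the lysosomal galactosylceramidase (chromosome 14), was at 1.71, 1.72, 1.92 and 2.23 CPM in the controls and had no count in the knockout, at least 12.1-fold lower when set against 3 counts per library. The IGF2BP3 knockout averaged 8.99 CPM of GALC. LINC01687 (chromosome 21) was at 1.37 to 2.13 CPM in the controls and at 0 in the knockout, at least 11.7-fold lower. PTN, the heparin-binding growth factor pleiotrophin, was at 0 in all 4 controls and at 2.66 and 1.71 CPM in the knockout, at least 14.6-fold higher, and it averaged 1.96 CPM in the IGF2BP3 knockout, where its level did not differ from that of the IGF2BP2 knockout beyond the test (log2 difference 0.17, adjusted p = 0.617, edgeR).

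The rises and falls with the largest difference in mean CPM were in abundant RNAs. TSC22D3, the glucocorticoid-induced leucine zipper, rose from 378, 365, 313 and 317 CPM to 1629.9 and 1659 CPM (log2 2.20, SE 0.06). NEAT1, the nuclear paraspeckle RNA, rose from 140.04 to 193 CPM to 599.7 and 579.6 CPM (log2 1.56), SLC38A1, a glutamine carrier, rose by 0.86, OGT, the O-GlcNAc transferase, by 0.87 and XIST by 0.53. Among the falls, EEF2, the ribosomal translocase, went from 5311 to 5831 CPM in the controls to 3135 and 3204 CPM (log2 -0.94), and ACTG1 and ACTB, the cytoplasmic actins, fell by 1.24 and 1.09. GAPDH fell by 0.93, TUBB, a beta tubulin, by 0.94 and HSP90AB1, a cytosolic chaperone, by 1.18. That none of these 11 genes overlapped between the groups was a condition for naming them. EEF2, TUBB and HSP90AB1 did not differ beyond the test between the IGF2BP2 and IGF2BP3 knockouts, with log2 differences of -0.10 to 0.09 and adjusted p values of 0.125 to 0.190, whereas TSC22D3 was higher in the IGF2BP2 knockout by 1.38 (adjusted p = 2.2e-18).

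Genes of the integrated stress response rose as a group. This pathway couples amino acid shortage and protein folding stress to the translation of ATF4, which with partners binds composite elements of its target genes. Of 27 listed and tested genes 20 rose and 3 fell, with a median log2 change of 0.60 against 0.02 over all genes tested. NUPR1, a stress-induced chromatin protein, rose from 1.09 to 1.60 CPM in the controls to 17.6 and 19.8 CPM (log2 3.45, SE 0.17). ATF3, a stress-induced repressor, rose from 33.0, 29.9, 29.9 and 31.2 CPM to 222 and 230 CPM (log2 2.71, SE 0.07), and TRIB3, a pseudokinase that feeds back on the pathway, from 20.05 to 26.2 CPM to 179 and 188 CPM (log2 2.63, SE 0.07). CHAC1, which degrades glutathione, rose by 2.05, PPP1R15A, the phosphatase subunit that ends the response, by 1.73, CEBPB by 1.69 and DDIT3, which encodes CHOP, by 1.68. The serine and glycine enzymes PHGDH, SHMT2 and MTHFD2 did not pass the test, with log2 changes of 0.07, 0.06 and -0.02, and neither did ASNS at 0.20. ATF4 mRNA was at 669, 648, 917 and 993 CPM in the controls and at 899 and 877 CPM in the knockout: it fell by 0.29 against its batch but lay within the range of all controls, and the change did not pass the test without a batch term (-0.04, adjusted p = 0.858, edgeR) or without knockout library 2 (adjusted p = 0.0561). Against the IGF2BP3 knockout, in which 6 of the 27 rose and 15 fell relative to the same controls, 23 of the 27 were higher in the IGF2BP2 knockout, with a median difference of 0.87. Of the 27 genes 23 rose in nuclear and 20 in cytoplasmic RNA, so the group moved the same way in the 3 kinds of RNA.

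Most immediate early genes and feedback genes of the ERK pathway rose too. Growth factor signals through RAS, RAF and ERK switch on FOS, EGR1 and their kin within minutes, and sprouty proteins and dual-specificity phosphatases then dampen the signal. Of 29 listed genes 23 rose and 1 fell, with a median of 1.28, and 17 of the 23 rose by 2-fold or more. FOS was at 7.64, 6.51, 3.14 and 3.21 CPM in the controls and at 68.4 and 76.8 CPM in the knockout (log2 4.34, SE 0.12, adjusted p = 1.4e-22, edgeR). EGR1 was at 13.6, 13.4, 13.1 and 12.7 CPM in the controls and at 261 and 293 CPM in the knockout (log2 4.23, SE 0.08, adjusted p = 4.3e-27), with no overlap in either gene. FOSB rose by 3.12, EGR3 by 2.40, JUN by 1.22, the phosphatases DUSP1 and DUSP6 by 1.49 and 1.04, the inhibitor SPRY4 by 4.09, and ETV5, an ETS factor downstream of ERK that lies beside IGF2BP2 on chromosome 3, by 2.43. SPRY4 and ETV5 were scarce even in the knockout, at 0.938 to 1.24 CPM and 2.29 to 2.39 CPM. IER3 fell by 0.48, a call lost with DESeq2 (adjusted p = 0.210), with upper quartile scaling (0.0584), without knockout library 2 (0.303) and without control 4 (0.182). SPRY1, ETV4, SPRED1, KLF2 and PHLDA1 did not pass the test. In the IGF2BP3 knockout 17 of the 29 rose against the same controls and 3 fell, with a median of 0.74, and 16 of the 29 were higher in the IGF2BP2 knockout, FOS by 1.15 and EGR1 by 1.67.

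Promoter sequences are given for EGR1, ATF3, CHAC1 and FGF21, 4 genes of these programmes that rose and whose 250 bases before a RefSeq start site (GRCh38.p14) hold a match to the element searched. All 4 genes lie on the plus strand and each sequence runs 5′ to 3′ up to the start site. Capitals mark the matches: CArG boxes, the binding element of serum response factor, in EGR1, and TGATGNAA on either strand, the form of the ATF4 and C/EBP composite element, in the other three.
EGR1, chr5:138465229-138465478: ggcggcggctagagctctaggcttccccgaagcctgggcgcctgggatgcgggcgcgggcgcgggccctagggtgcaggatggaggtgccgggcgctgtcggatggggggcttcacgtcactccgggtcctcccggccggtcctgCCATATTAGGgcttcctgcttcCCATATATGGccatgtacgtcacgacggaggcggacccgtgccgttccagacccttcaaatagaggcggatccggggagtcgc
ATF3, chr1:212565157-212565406: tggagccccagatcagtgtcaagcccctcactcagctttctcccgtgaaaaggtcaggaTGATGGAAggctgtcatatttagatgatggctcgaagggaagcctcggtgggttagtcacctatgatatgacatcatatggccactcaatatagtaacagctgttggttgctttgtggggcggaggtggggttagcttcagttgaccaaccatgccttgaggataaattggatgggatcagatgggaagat
CHAC1, chr15:40953221-40953470: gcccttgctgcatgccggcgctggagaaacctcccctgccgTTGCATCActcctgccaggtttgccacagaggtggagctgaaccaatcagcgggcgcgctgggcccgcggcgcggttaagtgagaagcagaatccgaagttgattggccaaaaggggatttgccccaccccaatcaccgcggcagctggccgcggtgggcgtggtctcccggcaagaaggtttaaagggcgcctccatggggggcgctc
FGF21, chr19:48755274-48755523: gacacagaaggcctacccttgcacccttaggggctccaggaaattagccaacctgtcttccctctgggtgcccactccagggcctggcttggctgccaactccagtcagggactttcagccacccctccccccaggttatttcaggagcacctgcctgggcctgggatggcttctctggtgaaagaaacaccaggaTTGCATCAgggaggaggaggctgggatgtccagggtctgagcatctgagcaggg
Counted from the start site, the matches begin at -105 and -83 in EGR1, at -191 in ATF3, at -209 in CHAC1 and at -54 in FGF21. Over all 34943 promoter windows of this length, 3.15% held TGATGNAA and 1.17% a CArG box, CC and GG around 6 bases of A or T. Of the stress response list 22 genes had a window, and ASNS, ATF3, CEBPG and CHAC1 held TGATGNAA, so the element was there in a gene that did not pass the test as well as in 3 that rose. Of 21 immediate early genes with a window EGR1 and EGR2 held a CArG box. A listed gene counted if any of its windows matched, so these counts per gene cannot be set against the shares per window. A match of letters is a description of the window and does not show binding.

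Insulin-like growth factor signalling, the pathway that gave the protein its name, was mixed: 13 of 28 tested genes rose, 7 fell and the median was 0.17. The ligand IGF2 rose from 2.35, 2.29, 1.83 and 1.20 CPM to 4.82 and 4.90 CPM (log2 1.46, SE 0.22, adjusted p = 1.1e-06, edgeR), above every control but low in all libraries. Binding proteins IGFBP3, IGFBP7 and IGFBP4, which hold the ligand outside the cell, rose by 2.44, 2.08 and 1.60, and IGFBP2 fell by 0.48. Of these, IGFBP3 averaged under 1 CPM even in the knockout. The receptor substrates IRS1 and IRS2 rose by 1.29 and 1.06, the receptor IGF1R by 0.19, and the clearance receptor IGF2R fell by 0.37. AKT1, MTOR and RPTOR fell by 0.21 to 0.24. IGF2 averaged 13.3 CPM in the IGF2BP3 knockout, higher than in the IGF2BP2 knockout by 1.42 (adjusted p = 7.3e-10, edgeR).

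Transcripts described elsewhere as IGF2BP2 targets moved in both directions, 7 higher and 11 lower of 19 tested, with a median of -0.51. HMGA1 fell from 445 to 471 CPM to 265 and 281 CPM (log2 -0.91), MYC fell by 0.73, CCND1 by 0.85, CTNNB1 by 0.61, FSCN1 by 1.47 and NDUFS3 by 1.10, whereas IGF2, LAMB2 and SOX2 rose by 1.46, 1.32 and 0.87. CD44, at most 1.07 CPM in these libraries, rose by 1.30, a call that was lost under 8 alternatives, among them DESeq2 (adjusted p = 0.179) and leaving out either knockout library (0.0758 without library 1 and 0.0784 without library 2) or control 3 or 4 (0.0747 and 0.0543). Of the 14 identifiers of the family, the edited gene included, and its partner proteins 13 fell and none rose, with a median of -0.46. YBX1, a cold shock protein that binds the same mRNAs, fell by 1.15, and the RNA-binding proteins MATR3 and DHX9 and the let-7 regulator LIN28B fell as well. All 14 fell in the IGF2BP3 knockout against the same controls. Among 16 m6A writers, erasers and readers 3 rose and 8 fell, by small amounts: the reader YTHDF2 rose by 0.37 and VIRMA, a writer subunit, fell by 0.76.

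Genes of energy metabolism were lower. Of 20 glycolytic enzymes and glucose carriers 17 fell and 3 rose, and the median was -0.93. Knockout and control libraries did not overlap for any of the 20, as for 64.2% of all genes tested. In the IGF2BP3 knockout 15 of the 20 fell and 3 rose against the same controls, with a median of -0.61. Between the knockouts 14 of the 20 were lower in the IGF2BP2 knockout and 5 higher. LDHA, the muscle-type lactate dehydrogenase, was at 712, 723, 906 and 948 CPM in the controls and at 303 and 297 CPM in the knockout (log2 -1.81, SE 0.06, adjusted p = 4.8e-21, edgeR). ALDOA fell by 1.57, PGAM1 by 1.40, PGK1 by 1.24 and PKM by 1.13, and the isoenzymes ENO2 and ENO3 and the carrier SLC2A3 rose by 1.45, 1.12 and 1.04. Hypoxia genes did not move as 1 group, with 4 higher and 8 lower of 21: VEGFA rose from 51.3 to 80.8 CPM to 236 CPM in both libraries (log2 1.43), and NDRG1, BNIP3 and EGLN3 fell by 1.18, 0.84 and 1.24.

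Respiratory chain subunits encoded in the nucleus followed. In complex I 30 of 37 fell and 1 rose, with a median of -0.49, and in complexes III and IV 20 of 21 fell and none rose, with a median of -0.60. NDUFS5 fell from 119 to 149 CPM to 76.5 and 73.7 CPM (log2 -1.08), COX8A from 117 to 130 CPM to 65.5 and 61.8 CPM (log2 -1.07) and CYC1 by 1.06. NDUFB2, the complex I gene that rose (0.55), lies on the long arm of chromosome 7. In nuclear RNA the medians were smaller, -0.12 for complex I and -0.19 for complexes III and IV, with 16 of 37 and 11 of 21 lower; in cytoplasmic RNA they were -0.40 and -0.37. The medians in the IGF2BP3 knockout were -0.25 and -0.38. Of the 37 genes of the complex I list 23 were lower in the IGF2BP2 knockout than in the IGF2BP3 knockout. The same held for 13 of the 21 genes of the list of complexes III and IV. NDUFA4, which fell, was counted in both lists.

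Lipid synthesis fell alongside. Of 23 cholesterol synthesis genes 17 fell and 1 rose (median -0.47), led by SQLE, the squalene epoxidase, at -1.48 and DHCR7, the last enzyme of the pathway, at -1.29. Of 18 fatty acid genes 13 fell and 4 rose (median -0.45). ACLY, which makes cytosolic acetyl-CoA, fell from 829 to 881 CPM to 294 and 295 CPM (log2 -1.77, SE 0.06), FASN by 0.96 and SCD by 0.86, while the neighbours in function ELOVL7, FADS3 and SCD5 rose. The transcription factor genes SREBF1 and SREBF2, which drive these sets, did not pass the test, at -0.11 and 0.07. In lysosomal enzymes 21 of 32 fell and 3 rose, with a median of -0.22.

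Ribosomal protein genes fell in 62 of 85 cases and rose in 2, with a median of -0.32; RPL19 fell by 0.89, RPS25 by 0.98 and RPSA by 0.89, and RPL22 and the muscle paralog RPL3L rose by 0.29 and 3.57. This direction held for total and cytoplasmic RNA (55 lower, median -0.20) and not for nuclear RNA, where 27 rose, 19 fell and the median was 0.09, against 27.5% higher and 27.6% lower among all genes there. Genes of 100 to 1000 CPM as a whole had a median of -0.23 in total RNA, with 1394 of 2378 lower, and those above 1000 CPM one of -0.39, with 51 of 64 lower. In the IGF2BP3 knockout 78 of the 85 ribosomal protein genes fell against the same controls and 2 rose, with a median of -0.45. Of the 85, 41 were higher in the IGF2BP2 knockout than in the IGF2BP3 knockout and 20 lower. Ribosomal protein genes have many pseudogene copies, so part of their reads is uncertain. Replication genes were lower in 25 of 37 cases and higher in 7 (median -0.23), mitotic genes lower in 20 of 27 and higher in 2 (median -0.25), with CCNB1 at -0.73, MKI67 at -0.57 and MCM2 at -0.67. In the IGF2BP3 knockout replication genes had a median of -0.47, with 26 lower and 4 higher. Mitotic genes had one of -0.10 there, with 10 lower and 5 higher. Of the 7 tested genes of cell cycle inhibitors 6 rose and CDKN2A fell, by 0.66. CDKN1A, which encodes p21, was at 58.9, 56.5, 24.4 and 23.02 CPM in the controls and at 80.3 and 81.7 CPM in the knockout (log2 1.59, SE 0.07). Without a batch term its change was 0.81 and did not pass the test (adjusted p = 0.0631, edgeR). CDKN1B, CDKN1C, CDKN2B and CDKN2D rose by 0.75 to 0.88 and CDKN2C by 0.25. In this list of 21 genes 12 rose and 6 fell. CDKN1A reached 79.5 CPM in the IGF2BP3 knockout too, and the knockouts did not differ in it beyond the test (0.06, adjusted p = 0.428, edgeR).

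**Figure D2:**
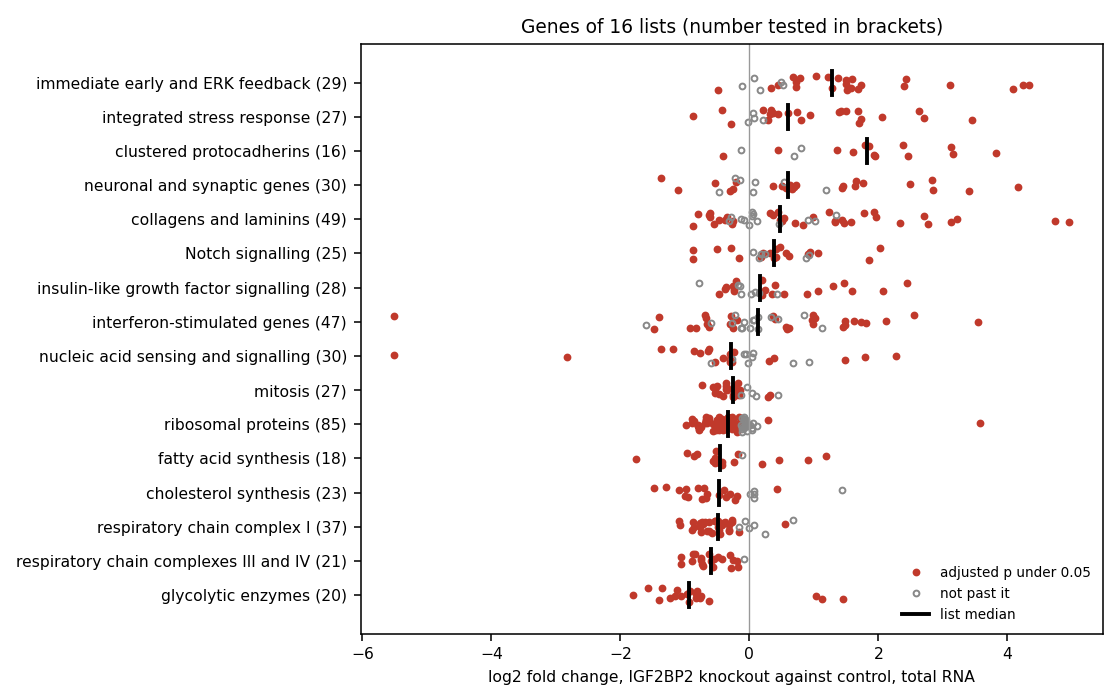
Log2 fold change of IGF2BP2 knockout against control in total RNA (x axis) for each tested gene of 16 lists (rows), filled where the adjusted p is under 0.05, with a black bar at the list median. The medians run from 1.28 for immediate early genes down to -0.93 for glycolytic enzymes, apart from clustered protocadherins, whose 1.83 rests on the 16 of 54 genes that passed the filter, and every list holds genes on both sides of 0 except respiratory chain complexes III and IV.

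Extracellular matrix genes were mixed, with a shift upward among those tested. Of 56 collagens and laminins 49 passed the filter on low counts, which scarce genes can pass through the knockout libraries alone. Of the 49, 25 rose and 11 fell, with a median of 0.48. In the IGF2BP3 knockout 28 of them rose and 11 fell, with a median of 0.55. Apart from COL6A3 and COL12A1, COL5A3, LAMB3 and COL17A1 rose by 3.22, 3.12 and 2.70, and LAMB2 rose from 115 to 158 CPM to 326 and 329 CPM. COL5A3 averaged under 1 CPM even in the knockout. LAMB1, COL4A1 and COL4A2, the laminin and collagens of most basement membranes, fell by 0.87, 0.55 and 0.35. Integrins and matrix receptors had 7 higher and 7 lower of 27, with a median of 0.00, and ITGA7 and ITGB4 rose by 1.13 and 1.14 while ITGA8 fell by 1.04. CDH2, neural cadherin, rose from 43.9 to 54.8 CPM to 108 CPM in both libraries, and CDH1, epithelial cadherin, fell from 5.93 to 7.67 CPM to 3.399 and 4.05 CPM. In the cadherin list 5 of 10 rose and 1 fell. The keratin KRT8 rose by 1.35, and KRT75, near 0 in the controls, reached 1.17 and 0.938 CPM.

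Clustered protocadherins, adhesion proteins of neurons that are chosen in small sets per cell, passed the filter in 16 of 54 cases, of which 12 rose, 1 fell and 3 did not pass the test. Since the filter can be passed through the knockout alone, this count describes the detected genes and not the family. Their levels stayed low, for example 0.171 to 0.515 CPM for PCDHB2 in the controls and 1.73 and 2.22 CPM in the knockout. The same filter let in 30 of 40 listed neuronal and synaptic genes, of which 17 rose and 6 fell, with a median of 0.60. The median of the 30 was 0.75 in the IGF2BP3 knockout. All tested genes averaging under 1 CPM had a median of 0.52 in the IGF2BP2 knockout. SNAP25, a vesicle fusion protein, rose from 0.0936 to 0.171 CPM to 2.16 and 2.17 CPM, SCG3, a granule protein, from 0.286 to 0.469 CPM to 4.64 and 4.82 CPM, and TUBB3, the neuronal tubulin, by 1.441, while NRXN3 fell by 1.11. Guidance genes split 29 higher to 18 lower of 64: PLXNA4, EPHA10 and EPHB6 rose by 3.32, 2.60 and 2.47 and EPHA8, UNC5C and SEMA3A fell by 1.30, 1.25 and 1.21.

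Genes of TGF-beta and BMP signalling rose in 19 of 38 cases and fell in 8. INHBA, the activin A chain, rose from 0.115 to 0.468 CPM to 5.25 and 4.99 CPM (log2 3.85), FST, which binds activin, by 3.07 and GDF15, a stress-induced family member, by 2.48, beside INHBE. The receptors ACVR1, ACVR2A, ACVR2B, BMPR2 and TGFBR1 rose by 0.23 to 0.28 and BMPR1B by 0.54, TGFBR3 and ACVR1B fell by 0.30 and 0.17, and TGFBR2 and BMPR1A did not pass the test. The ligand gene BMP2 fell by 1.13. INHBA averaged 0.420 CPM and FST 3.70 CPM in the IGF2BP3 knockout, and the difference between the knockouts was 3.68 for INHBA (adjusted p = 5.3e-11, edgeR) and 0.12 for FST (adjusted p = 0.637). Notch genes rose in 14 of 25 cases and fell in 5 (median 0.38), among them the ligand JAG1, at 1.86, and the target HES5, at 2.03, from under 1 CPM. Wnt genes rose in 9 of 36 cases and fell in 13 (median -0.13), with WNT4 at 2.58 and the receptor LGR4 at -1.13. WNT4 averaged under 1 CPM even in the knockout.

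Developmental and imprinted genes gave no common direction. Of 38 HOX genes 5 rose and 18 fell: HOXB6 fell from 73.7 to 93.1 CPM to 33.7 and 33.99 CPM (log2 -1.60), HOXB5 by 1.46 and HOXA13 by 1.23, while HOXC12 rose by 1.54. Of 17 imprinted genes 6 rose and 5 fell, and MKRN3, at 1.35 to 2.18 CPM in the controls, was at 0 and 0.256 CPM in the knockout. BEX and TCEAL genes of the X chromosome fell in 7 of 11 cases and rose in 3. BEX1 was at 2.29 to 3.26 CPM in the controls and at 0.742 and 0.0853 CPM in the knockout. Of 93 cancer-testis genes 5 passed the filter and 4 fell, with MAGEA3 and MAGEA6, near-identical copies, at -3.52 and -4.27. Both averaged under 1 CPM even in the controls. MAGEB2 fell by 1.14, a call lost under several alternatives, among them DESeq2 (adjusted p = 0.168) and limma on log2(FPKM + 1) (0.130). In the kidney and line list WT1 fell by 1.01 and SALL1 rose by 0.62.

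Innate immunity is the subject named in the title of the series. Interferon-stimulated genes split, 18 higher and 13 lower of 47 tested, with a median of 0.13. MX1, an antiviral GTPase, rose by 3.54 and SP100 and SP110, nuclear body proteins, by 2.55 and 2.12. MX1, SP100 and SP110 averaged under 1 CPM even in the knockout. EPSTI1 rose by 1.73, BST2, which tethers virus particles, by 1.49 and IFIT3 by 1.45. IFIT1 fell from 4.14 to 8.02 CPM to 3.21 and 3.20 CPM, TRIM21 by 1.47 and PLSCR1 by 0.93. STAT2 did not pass the test, at -0.12. IRF7, the master transcription factor gene of interferon induction, had 96 counts in the controls (0.833 to 1.37 CPM) and 1 in the knockout, a ratio of 46.7 with a counting interval of 8.18 to 1864, and it averaged 6.65 CPM in the IGF2BP3 knockout. Of the 47 genes 31 were higher in the IGF2BP3 knockout than in the same controls and 5 lower.

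Genes of nucleic acid sensing and signalling were lower on balance, 16 lower and 5 higher of 30, with a median of -0.28. Beside IKBKE, the adaptor MYD88 fell from 9.65 to 11.7 CPM to 5.50 and 4.48 CPM, the kinase TBK1 fell by 0.77, STING1 by 0.65 and MAVS by 0.29. The sensors CGAS and IFIH1, which detect DNA and long double-stranded RNA, rose by 2.28 and 1.48, but CGAS averaged under 1 CPM even in the knockout. RELB, an NF-kappa B subunit, rose from 1.03 to 2.71 CPM to 4.26 and 4.78 CPM. RIGI was at 0.93 without passing the test. In MHC class I presentation 4 rose and 8 fell of 20, with TAPBPL and ERAP1 at 1.86 and 0.92 and the chaperones CALR, CANX and PDIA3 at -0.52, -0.37 and -0.36. TAPBPL averaged under 1 CPM even in the knockout. IRF7 and TRIM21 lie on chromosome 11, whose genes were lower in general (below); without the genes of that chromosome, an alternative chosen after the data had been seen, the interferon list had a median of 0.33.

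Changes in total RNA were compared with those in the other kinds of RNA. In nuclear RNA 10186 of 18486 genes were called (55.1%), and 11560 of 17981 in cytoplasmic RNA (64.3%, with 33.1% lower). Lower calls of 2-fold or more made up 5.1% of genes in nuclear and 4.24% in cytoplasmic RNA, and higher calls of that size 9.36% in nuclear RNA. Of 5142 genes called higher in total RNA and tested in all 3 kinds 3178 were called higher in both others (61.8%) and 135 lower in either, and of 5577 called lower 3311 were lower in both (59.4%) and 132 higher in either. Of 1762 genes that were higher by 2-fold or more in total RNA and tested in all 3 kinds, 1338 were called higher in both others (75.9%), and of 645 lower by as much 495 were called lower in both (76.7%); 1 of the former was called the opposite way in either, and none of the latter. The libraries of each kind come from the same clone, and the labels do not say whether they come from the same cultures. All 15 of the most changed genes given above kept their direction, with nuclear changes of -6.95 to 7.67 and cytoplasmic ones of -8.03 to 10.5. Among abundant genes the falls were smaller in nuclear RNA than in total RNA: GAPDH fell by 0.38 in nuclear and 0.81 in cytoplasmic RNA, EEF2 by 0.52 and 1.03, and ACTB by 0.60 and 1.09. Long intergenic RNAs had medians of 0.20 in nuclear and 0.70 in cytoplasmic RNA.

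**Figure D3:**
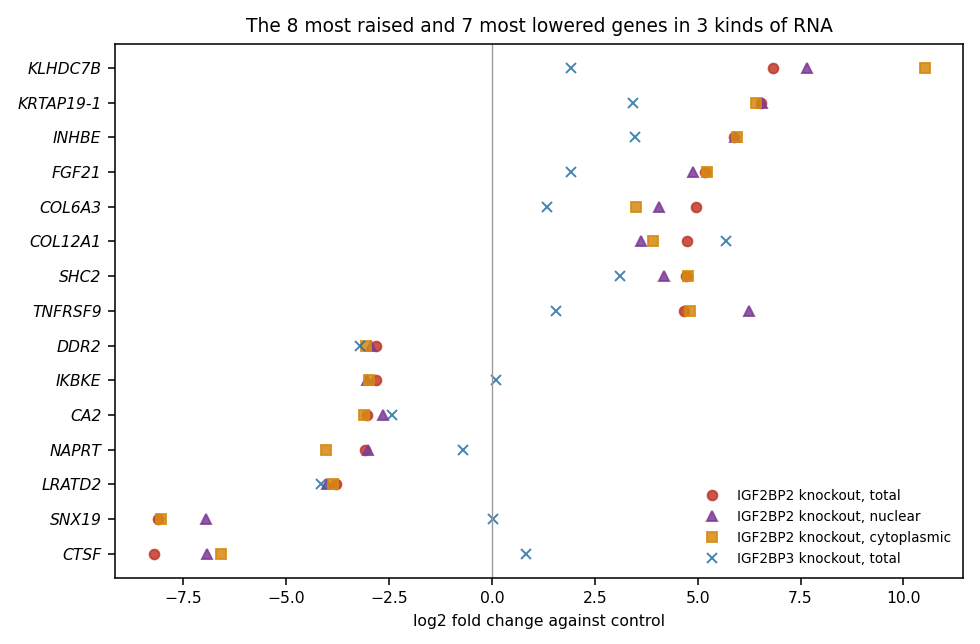
Log2 fold change against control (x axis) of the 8 most raised and 7 most lowered genes of the IGF2BP2 knockout in total (circle), nuclear (triangle) and cytoplasmic RNA (square), with the IGF2BP3 knockout in total RNA (cross). The 3 marks of the IGF2BP2 knockout lie on the same side of 0 for all 15 genes, and for IKBKE, SNX19 and CTSF the cross lies at 0.09, 0.03 and 0.83.

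Against the IGF2BP3 knockout, which is a second clone from the same batches, 10740 of 18613 genes differed (57.7%), 5434 of them higher in the IGF2BP2 knockout, and 2149 by 2-fold or more (11.5%). Against the controls 60.1% of genes were called in the IGF2BP3 knockout. Among these 15 genes the knockouts differed in all, yet several had moved alike from the control: LRATD2 averaged 24.9 CPM in the IGF2BP3 knockout and 31.2 CPM in the IGF2BP2 knockout, DDR2 11.1 and 14.1 CPM, CA2 126 and 80.8 CPM, and COL12A1 25.3 and 12.7 CPM. Others stood out in the IGF2BP2 clone alone of the pair, such as KLHDC7B with 0.250 against 7.54 CPM (difference 4.91, adjusted p = 8.3e-15, edgeR), COL6A3 with 1.25 against 14.9 CPM and NAPRT with 25.9 against 4.87 CPM. Both knockouts are compared with the same control libraries, so alike values do not stand as independent evidence.

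Position in the genome went with direction to a degree that touches the gene groups above. Chromosome 11 stood out: 563 of its 941 tested genes were lower (59.8%, against 30.3% of all genes) and 104 higher, with a median of -0.47, at -0.49 and -0.43 in the pairs of batches 3 and 4. The median was -0.45 in nuclear and -0.45 in cytoplasmic RNA, and 0.20 in the IGF2BP3 knockout, so the knockouts differed by a median of -0.63. All 46 windows of 40 consecutive genes along the chromosome had medians below 0, from -0.73 to -0.19, and 18 of the 24 windows in the genome at -0.50 or below were on it, of 857 windows in all. Chromosome 10 followed with a median of -0.23 and 338 of 709 genes lower, and chromosomes 7, 17 and 21 had medians of -0.17. Chromosome 18 had the highest, 0.32, and it was 0.22 in the IGF2BP3 knockout. The 30 tested genes assigned to the mitochondrial genome had a median of -0.49, with 17 lower and none higher. DNA copy number was not measured in these files, and its part in these shifts was not tested.

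**Figure D4:**
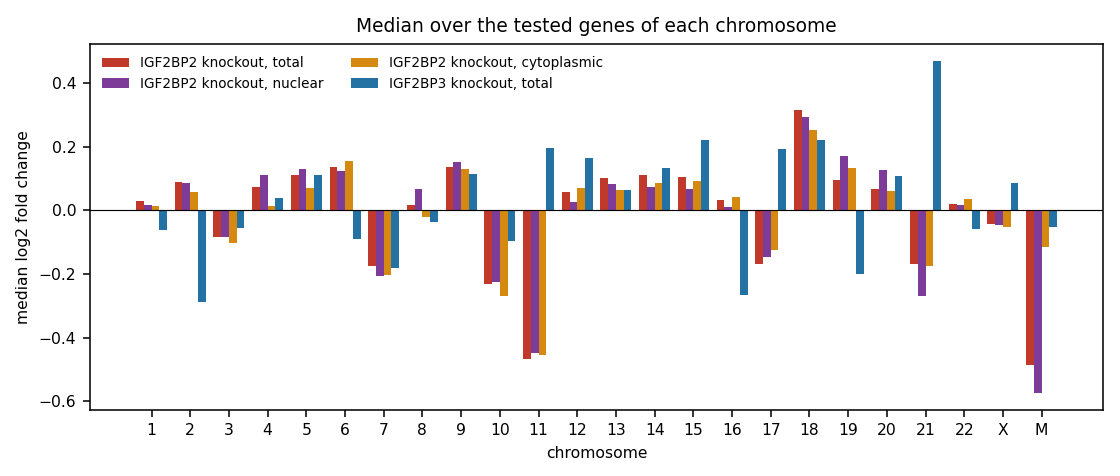
Median log2 fold change against control (y axis) over the tested genes of each chromosome (x axis), for the IGF2BP2 knockout in total (red), nuclear (purple) and cytoplasmic RNA (orange) and the IGF2BP3 knockout in total RNA (blue). Chromosome 11 is at -0.47, -0.45 and -0.45 in the IGF2BP2 knockout and at 0.20 in the IGF2BP3 knockout.

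A block on the long arm of chromosome 7 rose. In the window chr7:138460334-142962681, 36 of 40 genes were higher and 1 lower, with a median of 1.48, the highest in the genome, against 1.25 in nuclear, 1.37 in cytoplasmic RNA and 0.19 in the IGF2BP3 knockout. The genes named here in this block and near IGF2BP2 were chosen after their values had been seen. BRAF, the RAF kinase of the ERK pathway, was at 52.9, 51.2, 45.1 and 43.2 CPM in the controls and at 144 and 136 CPM in the knockout (log2 1.48, SE 0.07, adjusted p = 1.1e-17, edgeR). The splicing factor gene LUC7L2, the chromatin genes KDM7A and UBN2, and the kinase gene HIPK2 rose by 1.56, 1.68, 1.55 and 1.28, and TMEM178B rose from 12.5 to 15.96 CPM to 118 and 131 CPM. Farther along, CUL1 and EZH2 fell by 0.39 and 0.38. BRAF averaged 54.2 CPM in the IGF2BP3 knockout, where its change of 0.08 did not pass the test (adjusted p = 0.329, edgeR).

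The median direction also turned at IGF2BP2 itself. Of the 20 tested genes nearest on the side of lower coordinates, chr3:184249650-185633551, 15 rose and 2 fell, with a median of 0.58. Of the 20 nearest on the other side, chr3:185915906-190659750, 4 rose and 8 fell, with a median of -0.41. Of all 69 tested genes from there to the end of the chromosome 8 rose and 36 fell (median -0.42). Over all genes tested 29.2% rose and 30.3% fell. The 4 that rose were ETV5, MASP1, BCL6 and CLDN1, by 2.43, 3.41, 0.71 and 2.35, and OSTN, farther along, rose by 4.59. SENP2, a SUMO protease next to IGF2BP2, rose from 59.6 to 61.7 CPM to 125 and 128 CPM, and MAGEF1 rose by 1.00 and MAP3K13 by 0.54. On the other side TRA2B, a splicing factor, fell from 184 to 242 CPM to 164 and 153 CPM, DNAJB11 by 1.01, EIF4A2, a translation helicase, by 0.85, OPA1, which fuses mitochondrial inner membranes, by 1.28, and TFRC, the transferrin receptor, from 183 to 218 CPM to 105 and 104 CPM. Nuclear RNA had flank medians of 0.69 and -0.38, and cytoplasmic RNA of 0.55 and -0.14. The IGF2BP3 knockout had 0.00 and 0.30. The 3 guide RNAs were aimed at this gene, and whether the chromosome is intact there was not tested.

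**Figure D5:**
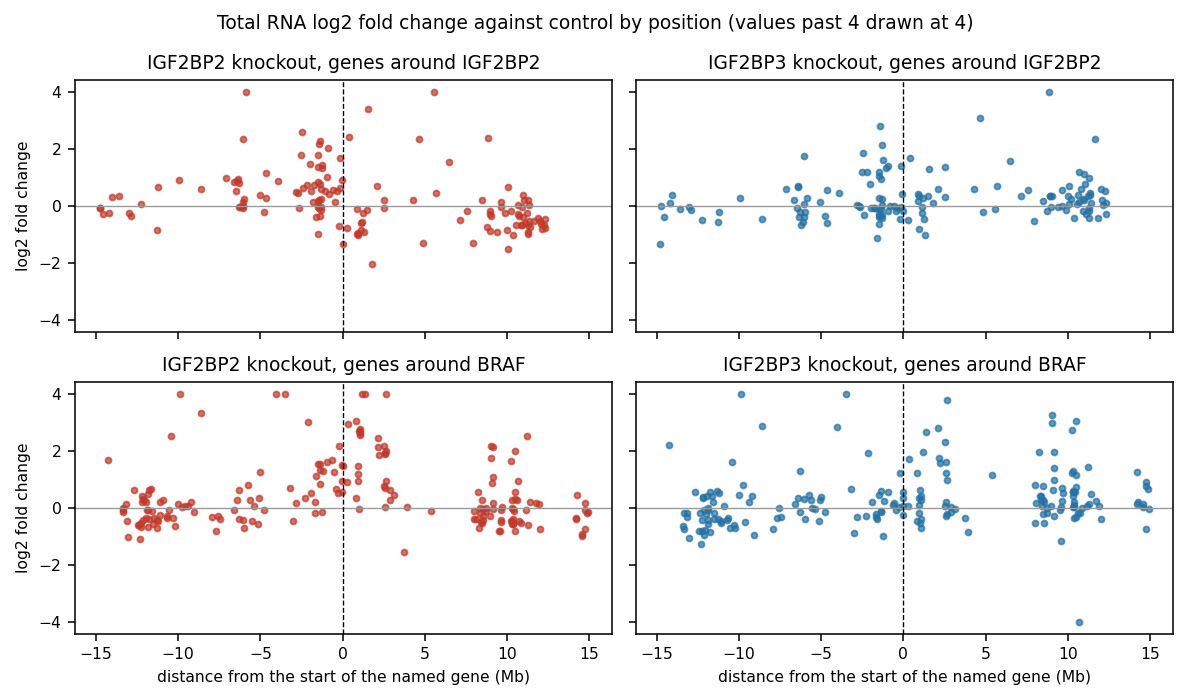
Log2 fold change against control in total RNA (y axis, values past 4 drawn at 4) of tested genes by distance of their lower coordinate from that of IGF2BP2 (top) and BRAF (bottom), within 15 Mb, for the IGF2BP2 knockout (left, red) and the IGF2BP3 knockout (right, blue). At the top left the median changes side at the dashed line that marks IGF2BP2, with flank medians of 0.58 and -0.41. Genes above and below 0 lie in both flanks. At the bottom left a block of raised genes surrounds BRAF.

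Zinc finger genes of chromosome 19, taken over the whole chromosome, rose as well. Of 193 tested ZNF-named genes on that chromosome 139 rose and 14 fell, with a median of 0.61, against 0.18 for 214 such genes elsewhere and 0.03 for the 1006 other genes of the chromosome. In nuclear and cytoplasmic RNA the median was 0.49 and 0.56, and in the IGF2BP3 knockout -0.02. The window chr19:56393656-57889074 had 39 of 40 genes higher. These genes are close relatives of each other, so their reads are partly uncertain.

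Removing chromosome 11 or taking each gene relative to its own chromosome left the medians of the 6 lists given next on the same side of 0. Without chromosome 11 the medians were 0.67 for the stress response, 1.32 for immediate early genes, -0.93 for glycolysis, -0.45 for complex I, -0.56 for cholesterol synthesis and -0.30 for ribosomal proteins. Relative to the median of the chromosome they were 0.77, 1.19, -0.95, -0.41, -0.50 and -0.35. LDHA, CTSF, SNX19, IRF7, COX8A, NDUFS3, CCND1 and DHCR7 lie on chromosome 11, whose median was -0.47. They were named for the size of their falls, so that each lies past this median follows from the choice. Of the 941 tested genes of that chromosome 104 rose.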

How the data were processed

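The labels describe poly(A)-selected stranded libraries from 200 ng of RNA, sequenced as paired reads of 50 bases on a NovaSeq instrument. The authors deposited raw counts per gene identifier, made with STAR and featureCounts on GRCh38 per the submitters' processing notes, which also name DESeq2 1.44.0; the annotation and strand setting are not given in the sources used here. The authors also deposited FPKM values, which matched counts divided by the genomic span of a gene with its introns (within 10% for 100% of 10329 genes) and were used in 1 alternative only.

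Counts were fitted with edgeR 4.0.16 in R 4.3.3 (TMM scaling, filterByExpr by group, quasi-likelihood test, batch and genotype as terms) over 8 libraries: 4 control, 2 IGF2BP2 knockout and 2 IGF2BP3 knockout, the last adding to the estimate of the spread. Nuclear and cytoplasmic RNA were fitted likewise. IGF2BP1 knockout libraries were left out because 1 of them held the same values as a nuclear library at all 62703 identifiers. Called means a Benjamini-Hochberg adjusted p under 0.05. Across 10390 genes, same-batch libraries deviated in opposite directions between the control and the knockouts (correlations of -0.22 with IGF2BP2 and -0.28 with IGF2BP3) and together between the knockouts (0.21). Batch, which the labels name, was kept as a term. Equal replicate numbers of control and IGF2BP2 knockout (-0.04) were not taken as pairs. Exons for lengths came from GENCODE 29 and promoters from RefSeq. Intervals cover counting error only.

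The genes named are the IGF2BP family, the 8 that rose and 8 that fell most among those of at least 5 CPM, the 6 with the largest difference in CPM each way, genes at 0 in 1 group, and up to 3 called members per list and direction. Further list members were picked after their values were seen. The most changed genes and those with the largest CPM difference had to show no overlap between knockout and control libraries. The former also had to keep their sign in both same-batch pairs. The latter had to change by at least 0.5 (log2) either way. Some genes that this rule names are not reported here. The comparison and the 36 gene lists and 5 marker lists were chosen with earlier results of these data known. The steps were tested on simulated data with 200 genes changed and no difference between batches. That test therefore does not cover so large a share of called genes or the batch differences seen here.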

Additional observations from a re-analysis of the deposited data

Results flagged for a closer look

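XIST, the long noncoding RNA of the inactive X chromosome, was higher in the IGF2BP2 knockout in total RNA and lower in nuclear RNA. The log2 change was 0.53 in total RNA and -0.49 in nuclear RNA, each called in its own fit (edgeR), and 0.11 in cytoplasmic RNA. It was singled out because the direction differed between kinds of RNA; the difference itself was not tested.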

How the results depend on the processing

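The fall of IGF2BP2 kept its direction and its call under every alternative run, from -0.29 on the log2(FPKM + 1) scale, which understates low genes, to -1.74 with a replicate block. Genes called in total RNA numbered 11062 as reported, 12147 with the replicate block in place of batch, 10980 with batches 3 and 4 alone, 9815 without a batch term, 7492 with DESeq2 and 7851 to 11088 when each library was left out in turn. With the batches of controls 3 and 4 exchanged, tried after the data had been seen, 11796 were called. Calls of 2-fold or more numbered 2733 as reported, 1828 with DESeq2 and 264 with limma on log2(FPKM + 1). With upper quartile scaling 61.5% of calls in cytoplasmic RNA were higher, against 48.6% as reported. Leaving out a library gave 7109 to 10180 calls in nuclear and 10353 to 11554 in cytoplasmic RNA. The count of genes that differ between the IGF2BP2 and IGF2BP3 knockouts in total RNA, 10740 as reported, moved to 6818 with DESeq2 and ranged from 7123, without IGF2BP2 knockout library 2, to 11608 with 1 library left out; the cause was not tested. Over 224 named genes, 3463 of 3574 alternative values kept direction and call and 107 lost the call. The other 4 reversed, all under the replicate block: TFEB to -0.028, ARSB to -0.079, PSPH to 0.56 and ATF4 to 0.25. With a filter of a mean of 1 CPM the median of the clustered protocadherins tested was 0.48, against 1.83 as reported. Genes of 1 to 3 counts in a group are limited by depth.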
